A study of Mus musculus with 62 samples.

Results

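The 9 genes followed code for transcription factors of cortical projection neurons, namely Tbr1, Neurod1, Neurod2, Neurod6, Mef2c, Fezf2, Emx1, Cux2 and Lhx2. They were picked by symbol, and all 9 were found by Ensembl ID among the 11121 genes with counts. RNA was from 2 regions, the PFC (prefrontal cortex) and the NAc (nucleus accumbens, in the ventral striatum), of wild-type C57BL/6j mice aged 15 weeks. Mice labelled mCRS had gone through multimodal chronic restraint stress, and CTR mice were kept unstressed. There were 15 PFC CTR, 15 PFC mCRS, 16 NAc CTR and 16 NAc mCRS libraries, made by BRB-seq, which reads the 3′ ends of transcripts and barcodes each RNA through its oligo-dT primer before pooling. No label ties a PFC library to the NAc library of the same mouse, so libraries were treated as independent in every test.

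Projection neurons of the cortex are glutamatergic cells that arise from the dorsal telencephalon, whereas projection neurons of the NAc are GABAergic cells that arise from the ganglionic eminences below it. Emx1, Lhx2 and Fezf2 act early in the dorsal lineage, and Neurod1, Neurod2, Neurod6 and Tbr1 come on as these cells leave the cell cycle and differentiate. Fezf2 and Tbr1 later mark deep layer neurons, Cux2 marks upper layer neurons, and Mef2c shapes synapse number in many neurons, striatal cells included. NeuroD proteins bind DNA as dimers with E proteins at E-boxes, the letters CANNTG.

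Library totals ranged from 945286 to 4857359 counts, and the share of genes with a count was 82.3% ± 6.22 (SD, n = 15) in PFC mCRS and 87.1% ± 4.42 (SD, n = 15) in PFC CTR libraries. The region labels were checked on marker genes. Slc17a7, the vesicular glutamate transporter of cortical neurons, lay between 245 and 1036 CPM (counts scaled to equal library totals) in the 30 PFC libraries and between 3.15 and 214 CPM in the 32 NAc libraries. Its log2 fold change of PFC against NAc in CTR mice was 3.17, that of Slc30a3 4.43 and that of Cck 4.23. All 14 markers of striatal projection neurons were lower in the PFC of CTR mice and of mCRS mice, among them Drd1 (-2.57 in CTR mice), Drd2 (-3.04), Ppp1r1b (-2.77) and Penk (-2.98). The library NAc CTR 7 stood apart, since its 14 striatal markers summed to 974 CPM against a group median of 7044 CPM and its Drd1 level was 0.417 CPM. Its 4 hypothalamic markers with counts, among them Oxt and Avp, summed to 2642 CPM, the highest of the group. In NAc mCRS 10, the 3 choroid plexus markers with counts summed to 21947 CPM against a group median of 82.2 CPM. Every regional and stress result was therefore also computed without these libraries, and no call on the 9 genes changed.

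The E-box letters of the NeuroD family were looked up on both strands, which read alike for CANNTG, in the 250 bases before the RefSeq start sites (GRCm38.p6). All 9 genes had an entry, with 13 start sites in all. CANNTG was found before 9 of the 13, and 66.2% of all 32851 promoters in that collection hold it. Below are 240 bases, from position -250 to -11 before the start, for a pair of NeuroD genes, for Mef2c and for Lhx2, chosen because they lie outside annotated exons and differ in E-box content. Capitals mark CANNTG.
Neurod2, chr11:98329656-98329895, minus strand: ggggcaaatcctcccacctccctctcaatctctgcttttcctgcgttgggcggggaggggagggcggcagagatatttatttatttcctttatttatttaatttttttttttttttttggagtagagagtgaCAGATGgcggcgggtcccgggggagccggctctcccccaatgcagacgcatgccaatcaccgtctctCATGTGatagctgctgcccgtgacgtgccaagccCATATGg
Neurod6, chr6:55681274-55681513, minus strand: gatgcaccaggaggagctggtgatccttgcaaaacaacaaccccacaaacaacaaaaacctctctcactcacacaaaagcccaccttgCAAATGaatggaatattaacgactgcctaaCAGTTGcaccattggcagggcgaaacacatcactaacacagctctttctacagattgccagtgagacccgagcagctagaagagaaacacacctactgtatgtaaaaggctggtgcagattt
Mef2c, chr13:83503784-83504023, plus strand: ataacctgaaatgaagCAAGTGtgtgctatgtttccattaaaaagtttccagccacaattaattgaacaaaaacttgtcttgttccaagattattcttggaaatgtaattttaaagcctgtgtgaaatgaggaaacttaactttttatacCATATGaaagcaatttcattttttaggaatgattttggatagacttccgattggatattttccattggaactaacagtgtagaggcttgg
Lhx2, chr2:38339031-38339270, plus strand: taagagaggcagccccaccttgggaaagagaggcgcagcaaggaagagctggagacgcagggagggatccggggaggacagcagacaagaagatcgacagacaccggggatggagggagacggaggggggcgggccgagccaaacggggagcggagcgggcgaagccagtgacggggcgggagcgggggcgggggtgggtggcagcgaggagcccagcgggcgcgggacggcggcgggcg
Neurod2 holds 3 E-boxes here and 1 of them reads CAGATG, a form that 14.4% of all promoters hold in either orientation. Neurod6 and this start of Mef2c hold 2 each, and the Lhx2 stretch holds none. Over the whole 250 bases, GC content was 52.8% before Neurod2, 46% before Neurod6, 33.6% before Mef2c and 72.8% before Lhx2, where the median of all promoters was 52.4%. These matches describe the letters only and were set against no binding data.

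In unstressed mice, 8 of the 9 genes were higher in the PFC than in the NAc at an FDR below 0.05 (edgeR's quasi-likelihood test, Benjamini-Hochberg adjustment over 11025 genes), and Cux2 was not. Of all genes tested, 3.56% were higher in the PFC by the same rule. The median log2 fold change of the 9 was 3.81 (all genes, -0.04). The genes are known cortical markers and 6 of them passed the filter on low counts through the PFC libraries, so this count describes them and is no independent evidence. Of 16 other markers of cortical excitatory neurons, 11 were higher and 1 (Arpp21) lower in the PFC, and of 10 oligodendrocyte markers 6 were lower, with sums of 1940 to 6066 CPM in PFC CTR and 5644 to 8425 CPM in NAc CTR libraries. The part of such differences in cell content in the values below was not tested. In bulk tissue, fewer cells of a type and less RNA per cell cannot be told apart.

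Neurod2 (ENSMUSG00000038255, chr11:98325415-98329648), which promotes differentiation of glutamatergic neurons, ranged from 26.9 to 362 CPM in PFC CTR libraries (median 133). In NAc CTR libraries its lowest, median and highest values were 0, 0.828 and 45.1 CPM. Only 1 NAc library, NAc CTR 1, exceeded the lowest PFC library. PFC exceeded NAc by a log2 fold change of 4.80 (SE 0.73, FDR = 5.04e-07).

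Neurod6 (ENSMUSG00000037984, chr6:55677822-55681263), a late marker of the same lineage, had a median of 112 CPM in PFC CTR libraries (5.65 to 230). In NAc CTR libraries the median was 0.1 CPM, 8 of 16 were at 0, and the highest reached 74.3 CPM in NAc CTR 1. That library alone held 47.9% of the Neurod6 counts of its group. Its log2 fold change was 3.80 (SE 0.76, FDR = 0.000205) and 4.93 without NAc CTR 1.

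Neurod1 (ENSMUSG00000034701, chr2:79452521-79456751), the family member of earlier, intermediate progenitors and of some mature neurons, was sparse everywhere. PFC CTR libraries ran from 0 to 94.1 CPM with a median of 8.79, and 12 of 16 NAc CTR libraries were at 0, the rest reaching up to 13.9 CPM. Its log2 fold change was 3.94 (SE 1.14, FDR = 0.0208), and the call was lost without PFC CTR 5, the highest library (3.49, FDR = 0.0557). Neurod1 lies inside the longer gene Cerkl on the same strand, and Cerkl has no row among the counts.

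Tbr1 (ENSMUSG00000035033, chr2:61802930-61814114), a T-box factor of deep layer corticothalamic neurons, separated the regions fully in CTR mice. Its PFC CTR libraries lay between 22.1 and 389 CPM (median 161) and its NAc CTR libraries between 0 and 20.1 CPM (median 2.36). At 5.33 on the log2 scale (SE 0.71, FDR = 7.89e-09), its fold change was the highest of the 9. The replicate number as a block changed this order (Neurod6 7.88, Neurod2 6.55, Fezf2 6.34, Emx1 6.18, Tbr1 6.12). Such a complete separation, every PFC above every NAc library, was met by 0.272% of the genes tested, and Tbr1 and Mef2c were the 2 members with it.

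Mef2c (ENSMUSG00000005583, chr13:83504034-83667080), a MADS-box factor that responds to neuronal activity, was present in every library of both regions. It ranged from 643 to 1298 CPM in PFC CTR libraries (median 888) and from 37.1 to 357 CPM in NAc CTR libraries (median 203), the lowest being NAc CTR 7. This gave a log2 fold change of 2.10 (SE 0.16, FDR = 8.28e-19). Mef2c had a biological coefficient of variation of 0.354, where genes of a like mean level had a median of 0.343. The other 8 lay between 0.873 (Cux2) and 2.22 (Emx1), and the median of all genes was 1.08.

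Fezf2 (ENSMUSG00000021743, chr14:12342094-12348189), the zinc finger factor of subcortical projection neurons, ran from 17.2 to 143 CPM in PFC CTR libraries (median 53.2). In NAc CTR libraries it ran from 0 to 40.7 CPM (median 0.504), and 2 of them, NAc CTR 2 and NAc CTR 16, lay above the lowest PFC library. The log2 fold change was 3.42 (SE 0.86, FDR = 0.00498).

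The homeobox genes divided. Emx1 (ENSMUSG00000033726, chr6:85187438-85204462), a dorsal telencephalic factor kept on in cortical glutamatergic neurons, was at 0 in 3 of 15 PFC CTR and 12 of 16 NAc CTR libraries, with medians of 11.8 CPM (0 to 89.5) and 0 CPM (0 to 6.42). Its log2 fold change was 4.55 (SE 1.26, FDR = 0.0137), and with log2 library size as a covariate the FDR was 0.054. Lhx2 (ENSMUSG00000000247, chr2:38339281-38369733), a LIM homeobox factor, had medians of 110 CPM (14.8 to 306) in PFC CTR and 9.92 CPM (0 to 119) in NAc CTR libraries, and 7 NAc libraries exceeded the lowest PFC library. The log2 fold change was 2.10 (SE 0.62, FDR = 0.025), and the FDR rose to 0.0648 with the robust estimate of spread.

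Cux2 (ENSMUSG00000042589, chr5:121856366-122050102), the upper layer factor, had medians of 63.2 CPM (0.596 to 139) in PFC CTR and 34.2 CPM (4.89 to 103) in NAc CTR libraries. The NAc range lay wholly inside the PFC range. The log2 fold change was 0.68 (SE 0.49, FDR = 0.673), with a 95% interval of -0.28 to 1.63 (normal, from the SE).

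**Figure D1:**
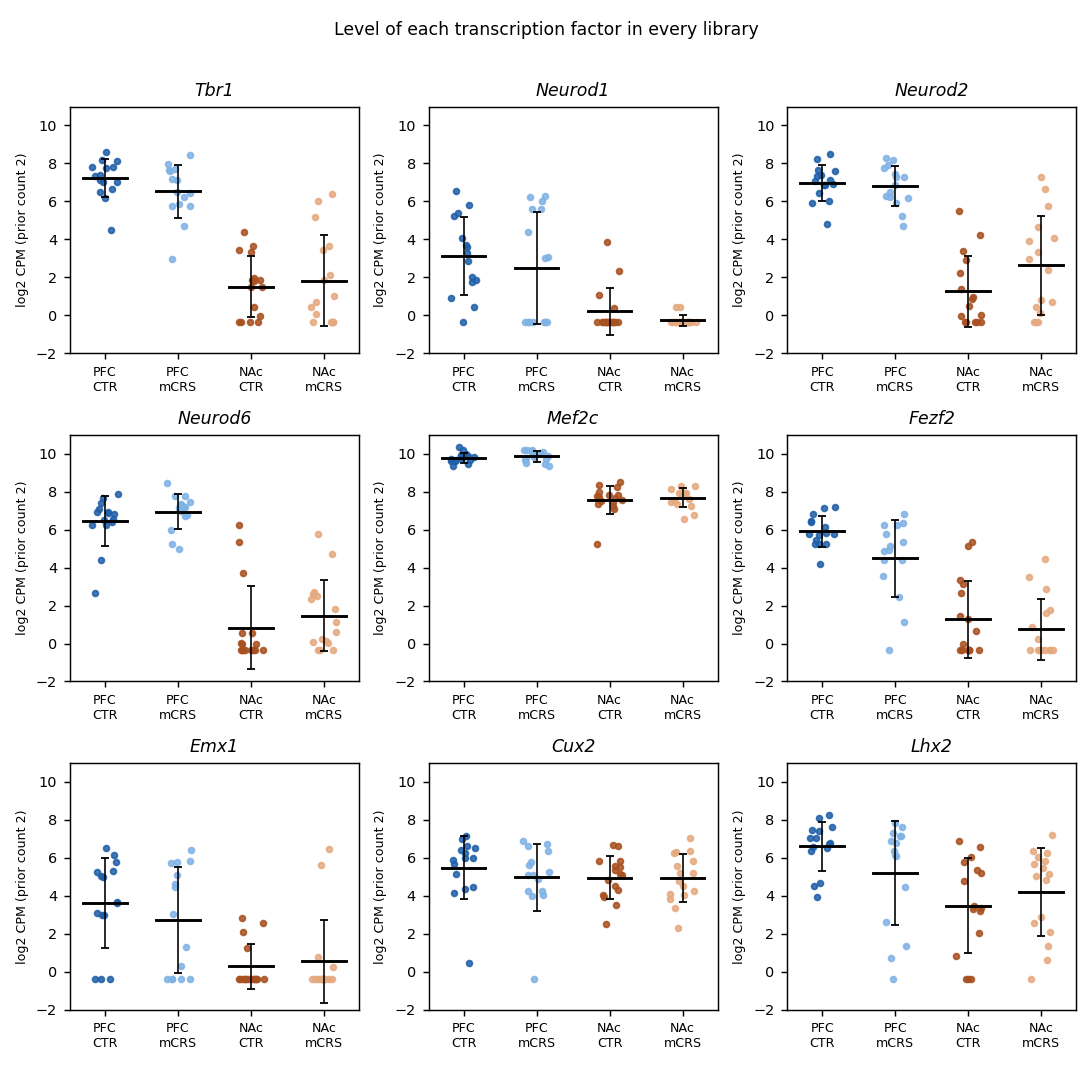
Log2 CPM (prior count 2, vertical axis) of each of the 9 genes in the 62 libraries, by group, 1 point per library; bars show the mean and error bars the SD. Tbr1 and Mef2c have no NAc CTR point above a PFC CTR point, whereas Cux2 points of all 4 groups share the same range.

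In mCRS mice, 6 of the 9 genes were higher in the PFC, namely Tbr1, Neurod1, Neurod2, Neurod6, Mef2c and Fezf2, where 3.86% of all genes were. All of these but Mef2c passed the filter on low counts through the PFC libraries. As in CTR mice, the count describes known cortical markers and is no independent evidence. Emx1, Cux2 and Lhx2 did not pass the test. Mef2c gave nearly the value of CTR mice, 2.14 on the log2 scale (SE 0.16, FDR = 6.63e-19), with PFC mCRS libraries between 656 and 1186 CPM and NAc mCRS libraries between 92.3 and 315 CPM. It was the only member with every PFC above every NAc library, which 0.154% of genes met.

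Tbr1 ranged from 7.11 to 350 CPM in PFC mCRS libraries (median 88.7) and from 0 to 83 CPM in NAc mCRS libraries (median 1.06). Here the groups overlapped, as 5 NAc libraries exceeded the lowest PFC library. Its log2 fold change was 3.28 (SE 0.64, FDR = 0.000118).

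Neurod2 went from 25 to 309 CPM in PFC mCRS (median 115) and from 0 to 154 CPM in NAc mCRS libraries (median 5.77). Its log2 fold change was 2.53 (SE 0.66, FDR = 0.00597). Neurod6 had medians of 144 CPM (31.2 to 349) and 1.09 CPM (0 to 53.7), with a log2 fold change of 4.45 (SE 0.78, FDR = 1.44e-05). Only NAc mCRS 15 exceeded the lowest PFC library for Neurod6.

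Neurod1 held 790 counts in the PFC mCRS group and 3 counts in 2 of the 16 NAc mCRS libraries. The ratio of pooled levels was 387 with a 95% counting interval of 132 to 1879 (exact binomial, counting error only, as reads carried no molecular identifiers). In the PFC mCRS group itself, 7 of 15 libraries were at 0 and the highest reached 77.1 CPM, so the high libraries and the empty ones stood side by side. Fezf2 had medians of 29.6 CPM (0 to 114) in PFC mCRS and 0 CPM (0 to 21.1) in NAc mCRS libraries, with a log2 fold change of 3.76 (SE 0.88, FDR = 0.0016).

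Emx1 gave a log2 fold change of 1.40 (SE 1.12, FDR = 0.644) in mCRS mice. PFC mCRS libraries ran from 0 to 83.6 CPM (median 7.41). The NAc mCRS group was at 0 in 12 of 16 libraries, but NAc mCRS 6 reached 86.9 CPM, above every PFC mCRS library, and without it the value was 2.76. Lhx2 gave 1.18 (SE 0.61, FDR = 0.338), with medians of 81.7 CPM (0 to 228) in PFC mCRS and 33.1 CPM (0 to 149) in NAc mCRS libraries. Cux2 gave 0.17 (SE 0.49, FDR = 0.938) with medians of 33.7 CPM (0 to 117) in PFC mCRS and 31.3 CPM (4.2 to 132) in NAc mCRS libraries. The ranges overlapped, with NAc mCRS 6 above every PFC mCRS library.

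**Figure D2:**
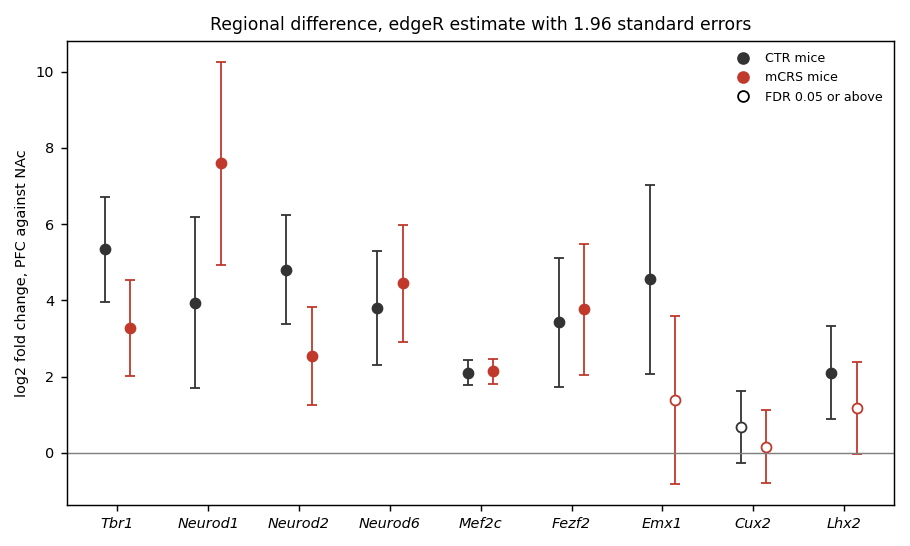
Log2 fold change of PFC against NAc (vertical axis) for each gene in CTR mice and in mCRS mice; points are edgeR estimates, bars span 95% intervals, and open points did not pass an FDR of 0.05. Estimates run from 0.68 (Cux2) to 5.33 (Tbr1) in CTR mice and from 0.17 (Cux2) to 7.60 (Neurod1) in mCRS mice.

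A region by treatment term in the model asked if the regional difference itself was unequal in CTR and mCRS mice. None of the 9 genes passed an FDR of 0.05 in edgeR (all FDR values 1.0) or in DESeq2, where 0.00907% of all genes did. At an unadjusted p below 0.05 there were 3 members, against 3.09% of all genes. All 3 passed the filter on low counts through the PFC libraries, so this count describes them and is no independent evidence. The regional difference of Tbr1 was smaller in mCRS mice by an interaction of -2.05 (SE 0.86, p = 0.0189), that of Neurod2 by -2.27 (SE 0.91, p = 0.0141), and that of Neurod1 was larger by 3.65 (SE 1.44, p = 0.0128). These are edgeR values without adjustment.

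The interactions of Tbr1, Neurod2 and Neurod1 each changed sides of an unadjusted 0.05 with single NAc libraries left out, and those of Tbr1 and Neurod1 also with the replicate number as a block (-0.87 and 0.98). Without NAc mCRS 8, Tbr1 gave -1.44 (p = 0.0868) and Neurod2 gave -1.63 (p = 0.0682). Without NAc mCRS 15, Tbr1 gave -1.59 (p = 0.0637), and without NAc CTR 1, Neurod1 gave 2.28 (p = 0.0868). Neurod2 gave -3.13 without NAc CTR 1 (p = 0.000638, FDR = 0.781). The regional differences for Emx1, Lhx2 and Cux2 had negative interactions (-3.15, -0.93 and -0.51) and those for Mef2c, Fezf2 and Neurod6 positive values of 0.04 to 0.64, none with a p below 0.05.

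In the PFC, none of the 9 genes passed the test for mCRS against CTR, nor did any of the 8916 genes tested by edgeR (0% at an FDR below 0.05). At an unadjusted p below 0.05 there was also no member, against 3.5% of all genes. Estimates were above 0 for 3 genes and below 0 for 6, with a median log2 fold change of -0.27 (all genes, -0.01). DESeq2 gave an adjusted p only for Mef2c (0.71) of the 9, since its own filter on mean counts left out the others. It gave none for 8297 of the 8916 genes and called 5 of the rest.

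The smallest p values belonged to Fezf2 and Tbr1, the deep layer factors. Fezf2 had medians of 53.2 CPM in PFC CTR and 29.6 CPM in PFC mCRS libraries, with a log2 fold change of -0.79 (SE 0.51, p = 0.127, FDR = 1.0). Tbr1 had medians of 161 and 88.7 CPM and a log2 fold change of -0.45 (SE 0.34, p = 0.187). The ranges of both genes overlapped, with the lowest values in PFC mCRS and the highest in PFC CTR libraries.

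Intervals show what the design could resolve. For Mef2c the change lay between -0.16 and 0.31 on the log2 scale (estimate 0.08, 95% interval). Neurod2 (-0.11, from -0.73 to 0.51) and Neurod6 (0.41, from -0.23 to 1.05) were less precise. Lhx2 (-0.53, from -1.48 to 0.43), Cux2 (-0.42, from -1.43 to 0.59), Emx1 (-0.27, from -2.05 to 1.51) and Neurod1 (0.27, from -1.59 to 2.13) left wide room.

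Libraries at 0 were more numerous in the PFC mCRS group for several genes, a difference that was not tested. These libraries were also shallower, with a median total of 1966931 counts against 2398072 in PFC CTR libraries. The part of depth in the libraries at 0 was not tested. Neurod1 was at 0 in 7 of 15 PFC mCRS and 1 of 15 PFC CTR libraries, and Emx1 in 5 and 3. Fezf2, Cux2 and Lhx2 were at 0 in 1 PFC mCRS library each and in no PFC CTR library. The summed mtDNA genes had a median of 172583 CPM in PFC mCRS against 123459 CPM in PFC CTR libraries, and leaving them out of the library sizes gave -0.79 for Fezf2 and -0.45 for Tbr1. When each library's share of detected genes entered the model, Fezf2 gave -0.65 and Tbr1 -0.28.

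**Figure D3:**
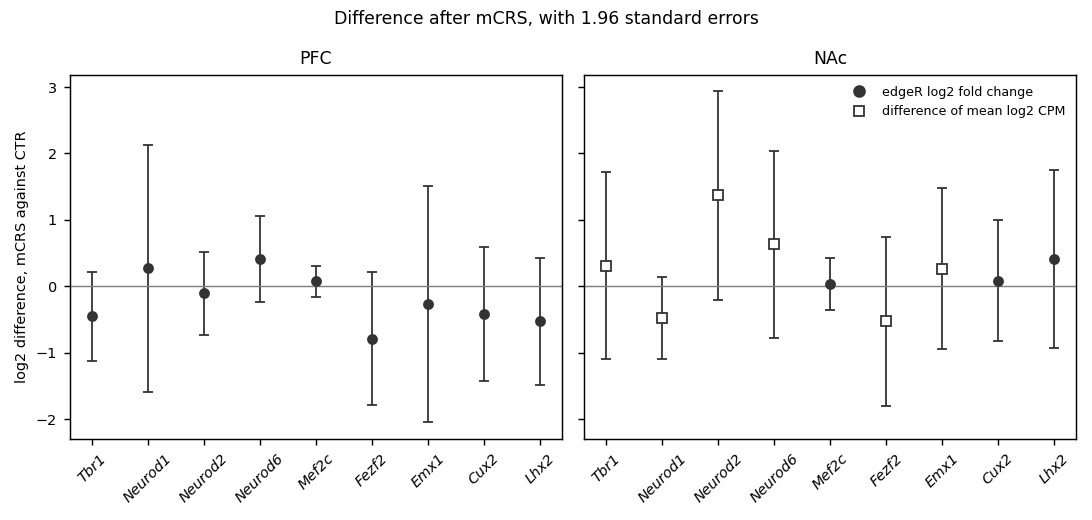
Difference between mCRS and CTR libraries (log2 scale, vertical axis) for each gene in the PFC and in the NAc; circles are edgeR estimates, squares are differences of mean log2 CPM for genes outside the filter, and bars span 95% intervals. Every bar crosses 0, and the narrowest belong to Mef2c.

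In the NAc, only Mef2c, Cux2 and Lhx2 passed the filter on low counts, and none of the 3 differed between mCRS and CTR libraries, where 0.00986% of all genes passed an FDR of 0.05 and 2.04% an unadjusted p below 0.05. Mef2c had medians of 229 CPM in NAc mCRS and 203 CPM in NAc CTR libraries, and a log2 fold change of 0.03 (SE 0.20, FDR = 1.0). Cux2 gave 0.08 (SE 0.46) and Lhx2 0.41 (SE 0.68), the latter with medians of 33.1 and 9.92 CPM. DESeq2 called none of them either. The direction for Mef2c turned without NAc CTR 7 (-0.033).

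The other 6 genes were compared on log2 CPM by a 2-sided permutation test with 100000 resamples, and none reached p = 0.05. Neurod2 came nearest, with means of 2.63 ± 2.60 (SD, n = 16) in mCRS and 1.26 ± 1.87 (SD, n = 16) in CTR libraries, a difference of 1.37 (SE 0.80, p = 0.0967, adjusted p = 0.58 over the 6). It had a count in 13 of 16 NAc mCRS and 11 of 16 NAc CTR libraries. Differences were 0.63 for Neurod6, 0.31 for Tbr1, 0.27 for Emx1, -0.47 for Neurod1 and -0.53 for Fezf2, with p from 0.214 to 0.674. edgeR without the filter on low counts gave other sizes for these sparse genes, and for Neurod6 the opposite direction. Neurod1 was at -3.48 (p = 0.00221), Emx1 at 2.91 (p = 0.0274), Neurod2 at 2.10 (p = 0.0423) and Neurod6 at -0.29 (p = 0.795), all at FDR = 1.0. From the fit of all 62 libraries, Neurod1 gave -3.40 (p = 0.00317), Emx1 2.89 (p = 0.0152), Neurod2 2.15 (p = 0.00159) and Tbr1 1.6 (p = 0.011), again at FDR = 1.0.

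The NAc values of these 6 genes came from a few libraries, and not always the same ones. NAc mCRS 8 was the highest of its group for Tbr1 (83 CPM), Neurod2 (154 CPM), Slc17a7 (214 CPM) and Slc30a3 (112 CPM), the zinc transporter of cortical glutamatergic terminals. NAc CTR 1 was the highest of its group for Neurod1, Neurod2, Neurod6 and Cck, a peptide gene strong in cortical neurons. Emx1 was high in NAc mCRS 6 and NAc mCRS 10, where Tbr1 was at 0.

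Among markers of cortical excitatory neurons, Cck gave a log2 fold change of 1.07 for mCRS against CTR in the NAc (p = 0.00267) and Slc30a3 2.05 (p = 0.029), with FDR = 1.0 for both. Slc17a7 gave 0.09 (p = 0.817). No other marker tested there had an unadjusted p below 0.05, where 2.04% of all genes did. Their values ran from -0.335 to 0.978, on both sides of 0. The interaction was at an unadjusted p below 0.05 for 7 of the 16 markers tested, 1 of them positive, against 3.09% of all genes. None passed an FDR of 0.05. The median interaction of the 16 was -0.36 against -0.02 for all genes. The markers were measured in the same libraries, so they are not separate results. The summed level of the 16 markers ranged from 2443 to 5590 CPM in NAc mCRS (median 4021) and from 1759 to 5534 CPM in NAc CTR libraries (median 3820). Their part in the values of Neurod2 and Tbr1 was not tested.

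**Figure D4:**
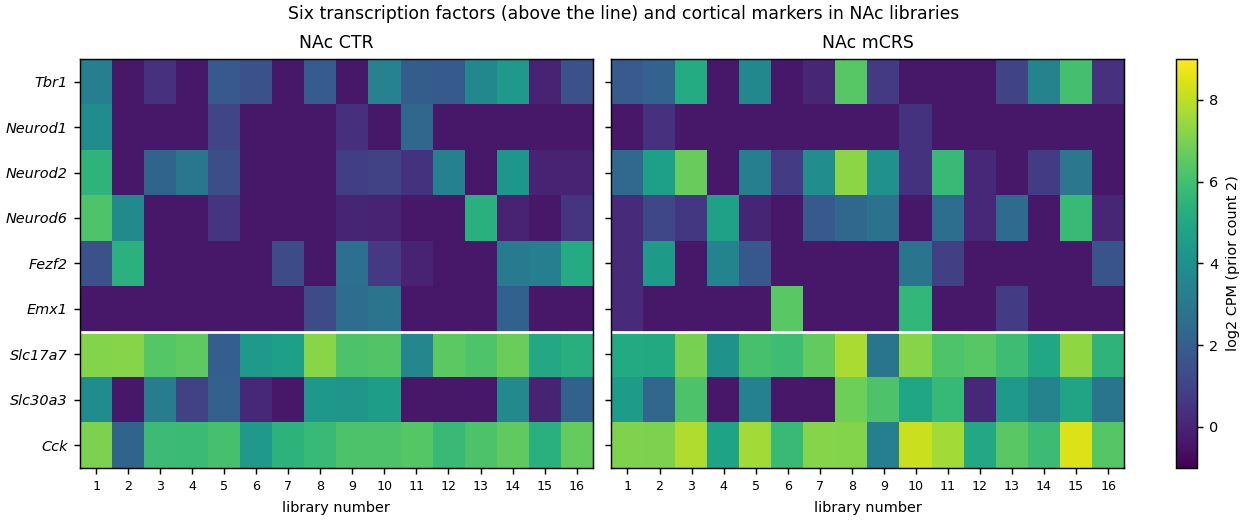
Log2 CPM (colour, prior count 2) of the 6 transcription factor genes outside the NAc filter, with Slc17a7, Slc30a3 and Cck under the white line, in each of the 16 NAc CTR and 16 NAc mCRS libraries (columns, by library number). NAc mCRS 3 and 8 are bright for both Tbr1 and Neurod2, NAc mCRS 15 for Tbr1 and Neurod6, and NAc CTR 1 for Neurod2 and Neurod6, while Neurod6 is also bright in NAc CTR 13 and NAc mCRS 4.

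Within groups, each gene was set against Slc17a7 across libraries, which gave 36 relations, and 0 passed an adjusted p of 0.05 (permutation test of Pearson's r). At an unadjusted p below 0.05 there were 3 by r. In NAc mCRS libraries (n = 16), Lhx2 had r = -0.61 (permutation p = 0.0107, adjusted p = 0.221, rho = -0.49 with p = 0.0565 and adjusted p = 0.508) and Cux2 r = 0.60 (p = 0.0132, adjusted p = 0.221, rho = 0.53 with p = 0.0383 and adjusted p = 0.508). Without the 2 libraries farthest in Slc17a7, r was -0.53 for Lhx2 and 0.32 for Cux2. In PFC mCRS libraries (n = 15), Emx1 had r = 0.60 (permutation p = 0.0184, adjusted p = 0.221, rho = 0.53 with p = 0.0431 and adjusted p = 0.508) and 0.45 without those farthest. By rho, the smallest p belonged to Mef2c in NAc CTR libraries (n = 16, rho = 0.70, permutation p = 0.00307, adjusted p = 0.111), where r was 0.47 (permutation p = 0.0739, adjusted p = 0.532) and 0.62 without those farthest.

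Genes whose pattern lay closest to each member were found by the root-mean-square difference of centred log2 CPM over all 62 libraries, a description in which region dominates and libraries are shared. Cck was the closest gene to Tbr1 (1.67), Neurod2 (1.72) and Neurod6 (2.02). Slc17a7 came second for Tbr1, Neurod6 and Fezf2, and Slc30a3 second for Neurod2. Mef2c was closest to Nrgn (0.54), a postsynaptic calmodulin-binding protein gene, followed by Serpini1 (0.60) and Olfm1 (0.60).
For the other members, the difference to the closest gene is given beside the member's own spread about its mean. It was 2.12 of 2.55 for Emx1 (Nptxr), 2.10 of 2.51 for Lhx2 (Stac2), 1.84 of 2.33 for Neurod1 (Dlgap1), 1.31 of 1.44 for Cux2 (Nrxn3) and 1.94 of 2.71 for Fezf2 (Stx1a).

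Partners of these factors were measured too. Among E proteins, the dimer partners of NeuroD, Tcf4 was higher in the PFC (1.13 in CTR mice, FDR = 4.42e-08, and 1.01 in mCRS mice), and Tcf12 (-0.62) and Tcf3 (-0.40) did not pass the test. Of the Id genes, whose products bind E proteins and block DNA binding, Id2 was higher in the PFC (1.28 in CTR mice) and Id4 lower (-1.64), and Id1 (-0.13) and Id3 (0.00) did not pass.

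Of the class IIa histone deacetylases that repress through MEF2, Hdac7 was lower in the PFC of CTR mice (-2.44, FDR = 0.0479), a call lost without NAc CTR 7 and NAc mCRS 10, and in mCRS mice it gave 0.18 (FDR = 0.957). Hdac4 (0.53), Hdac5 (-0.78) and Hdac9 (1.03) did not pass. Of the LIM domain cofactors with which Lhx2 works, Ldb2 was higher in the PFC (2.09 in CTR and 1.69 in mCRS mice), and Ldb1 (-0.08), Ssbp2 (-0.50), Ssbp3 (0.21) and Ssbp4 (-0.07) did not pass. Lmo4, of the LMO genes whose products compete for these cofactors, was higher in the PFC (1.49 in CTR and 1.08 in mCRS mice), and Lmo1 (-0.45), Lmo2 (-0.83) and Lmo3 (-0.04) did not pass. None of the 5 TLE family genes with counts passed in either set of mice. Their values in CTR mice were -0.44 for Tle1, 0.57 for Tle2, 0.62 for Tle3, -0.70 for Tle4 and -0.16 for Aes. None of all these partners passed the test for mCRS in either region.

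**Figure D5:**
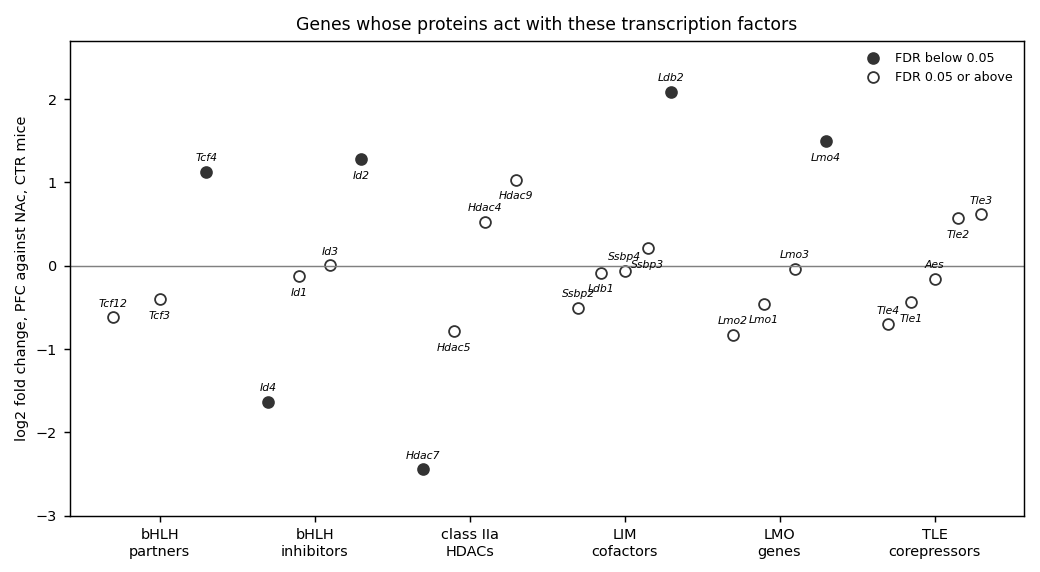
Log2 fold change of PFC against NAc in CTR mice (vertical axis) for genes whose proteins dimerize with, inhibit or assist the followed factors, by group; filled points passed an FDR of 0.05. Tcf4, Id2, Ldb2 and Lmo4 are the 4 filled points above 0, and Id4 and Hdac7 the 2 below.

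Genes known as MEF2 targets were counted beside Mef2c. Of 14 tested, 2 were higher in the PFC of CTR mice and 3 in mCRS mice, with median log2 fold changes of 0.50 and 0.42, where 3.56% and 3.86% of all genes were higher and the medians of all genes were -0.04 and -0.06. Bdnf, the neurotrophin gene, gave 2.60 in CTR mice (FDR = 0.0077) and Egr1, an immediate early gene, 1.03 (FDR = 0.00152). In mCRS mice the 3 were Bdnf (5.09), Homer1 (0.88) and Pcdh10 (0.77). Between mCRS and CTR in the PFC, none passed an FDR of 0.05, and Bdnf had the smallest p (2.28, p = 0.000215, FDR = 0.475). In PFC mCRS 9 the summed level of the targets was 8077 CPM against a group median of 2124 CPM, and the part of that library was not tested.

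Of 25 other cortical transcription factor genes tested, 6 were higher and none lower in the PFC of CTR mice, and 5 higher and none lower in mCRS mice. The medians were 0.64 and 0.35, below those of the 9 genes (3.81 and 2.53). Members and lists were chosen with earlier results of these data known, so this order describes them only. The 3 of smallest p in CTR mice were Nfib (1.67), Nfix (1.38) and Id2 (1.28), the last also counted among the Id genes above. Of 14 transcription factor genes of striatal neurons, none was higher in the PFC. Lower were 5 in CTR mice and 9 in mCRS mice, with medians of -1.44 and -1.77. Without the libraries that stood apart, 7 were lower in CTR mice and 9 in mCRS mice. The share of all genes lower in the PFC is not given, so counts of lower genes have no base rate beside them. The 3 of smallest p in CTR mice were Six3 (-4.87), Foxp2 (-2.0) and Bcl11b (-1.22), the last also a factor of subcortical projection neurons of the cortex. No gene of these lists passed the test for mCRS in either region.

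The order of group medians was PFC CTR, PFC mCRS, then both NAc groups for Neurod1, Neurod2, Tbr1, Fezf2, Emx1 and Lhx2, and PFC mCRS came first for Neurod6 and Mef2c. Neighbours from the same region passed no test for any gene, and neither did PFC mCRS against NAc mCRS for Emx1 and Lhx2. For Cux2 the medians were 63.2, 34.2, 33.7 and 31.3 CPM in PFC CTR, NAc CTR, PFC mCRS and NAc mCRS libraries, and no pair of neighbours that was tested passed.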

How the data were processed

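Counts of uniquely mapped reads per gene were deposited by the authors as raw whole numbers, without normalization. The authors mapped reads with STAR to GRCm38 and counted them with htseq (0.9.1 in the submitters' processing notes, which name bcl2fastq too), and removed 2 PFC samples of poor sequencing quality. How the 11121 genes were selected is not given in the sources used here. Totals were 945286 to 4857359 counts per library, and 12.9% of values were 0. The 9 genes were matched by Ensembl ID (GENCODE, GRCm38), and no 70-base window of their last 600 transcript bases occurs in another gene. Libraries were grouped by title. edgeR 4.0.16 (R 4.3.3) was run with TMM factors and its quasi-likelihood test after filterByExpr on the groups. Regional contrasts and the interaction came from 1 fit of 62 libraries, and mCRS was contrasted with CTR within a region. FDR is the Benjamini-Hochberg value over all genes tested. CPM uses TMM library sizes, and log2 CPM a prior count of 2. Permutation tests (scipy 1.17.1) drew 100000 resamples. The tests set a difference between groups against the spread between libraries, which were treated as independent.

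Alternatives were DESeq2 1.42.0, other scalings and filters, covariates, a robust spread, the replicate number as a block and each library left out. Leaving out NAc CTR 7 and NAc mCRS 10 was chosen after seeing the data. The members and lists were chosen with earlier results of these data known. Named were all members, all genes of lists of up to 6, the 3 of smallest p in longer lists, fixed markers (1 of them is not reported here) and, per member, the closest genes. Fits were tested on simulated data. Bdnf, Egr1, Homer1, Pcdh10, Oxt, Avp, Arpp21 and the choroid plexus markers were named after their values were seen.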

Additional observations from a re-analysis of the deposited data

How the results depend on the processing

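Counts of called genes among the 9 moved by less than 1.5 times under every alternative run, and 1 relation passed an adjusted p of 0.05 with Slc30a3 in place of Slc17a7, where 0 did with Slc17a7. With 1 library left out in turn, called genes numbered 7 to 8 for PFC against NAc in CTR mice, 6 in mCRS mice and 0 for mCRS in the PFC, in the NAc and for the interaction. Tbr1, Neurod2, Neurod6, Mef2c and Fezf2 passed an FDR of 0.05 in both sets of mice under every alternative and with every library left out. Under the strict filter Emx1 and Neurod1 were not tested, and fits of the 2 groups alone left out Neurod1, and in mCRS mice Emx1 as well. Values that changed sign were all uncalled. Cux2 in mCRS mice gave -0.021 with the replicate block, and Neurod1 after mCRS in the PFC -1.27. Emx1 after mCRS in the PFC gave 0.034 with log2 library size and 0.11 with the share of genes detected as covariates. In the NAc, Cux2 gave -0.13 with that share, and Mef2c -0.045 and Emx1 -0.11 without NAc CTR 7 and NAc mCRS 10. Neurod6 in the NAc had opposite directions in the permutation test and in edgeR without the filter on low counts. Interactions turned with the replicate block for Neurod6 (-1.88), Mef2c (-0.036) and Fezf2 (-0.46), and for Neurod6 (-0.065) with the share detected. The cause was not tested. With 1 library left out, signs turned for Neurod2 (-0.24 to 0.039) and Emx1 (-0.58 to 0.0010) after mCRS in the PFC, for Mef2c (-0.033 to 0.11) and Cux2 (-0.14 to 0.25) in the NAc, and for the interactions of Neurod6 (-0.48 to 1.54), Mef2c (-0.034 to 0.10) and Fezf2 (-0.23 to 1.15). Labels number replicates 1 to 16, but same-numbered libraries did not deviate together (0 of 15 correlations above 0.1 in each of 4 pairings). The replicate block, with 8, 6, 0, 0 and 0 genes called, left each count of called genes as it was. Under it the regional estimates in CTR mice were 7.88 for Neurod6 and 6.34 for Fezf2, and in mCRS mice 5.26 for Tbr1, 4.26 for Neurod2 and 4.85 for Emx1 (FDR = 0.144). Interactions under it were -0.87 for Tbr1 (unadjusted p = 0.455), 0.98 for Neurod1 (p = 0.44) and -2.29 for Neurod2 (p = 0.045), and in the PFC mCRS gave -1.29 for Fezf2 (p = 0.0682) and -0.62 for Tbr1 (p = 0.0541). Without NAc CTR 7 and NAc mCRS 10, calls on the other gene lists changed as well. They went from 1 to 0 for Hdac7, for an astrocyte marker in CTR mice and for a choroid plexus marker after mCRS in the NAc. Choroid plexus markers in mCRS mice went from 3 to 2, and oligodendrocyte markers lower in mCRS mice from 7 to 6. Striatal transcription factor genes lower in CTR mice rose to 7. Neurod2 passed the NAc filter without NAc CTR 7 and NAc mCRS 10 (2.10, unadjusted p = 0.0416, FDR = 1.0). Levels near 0 in most NAc libraries limit 6 of the 9 genes there, and PCR copies were counted as reads.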
